A study of Rattus norvegicus with 18 samples.

Results

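Esrrb, Reep6, Plpp2, Ppef1 and Susd3 were 5 genes whose retinal level was much lower in rats exposed to bright light than in control rats. They were taken by gene symbol, from 14506 genes with a symbol of their own, and each matched exactly 1 of the 29214 probe sets on the array. They were chosen by their log2 intensities, which were much lower in the light-exposed groups than in control. Their light against control differences are therefore given as a description, without a test. Retinal RNA of 18 adult albino Sprague Dawley rats was measured, 1 array per retina. The rats were 80 to 120 days old, were raised in cyclic light of 5 lux and ate the vegetable matrix that also carried the saffron. The question was how a dietary antioxidant and red light act on a retina challenged by damaging light. The 6 groups had 3 arrays each, from separate animals. Control rats received no pretreatment and no bright light. Saffron rats ate 1 mg/kg of saffron daily over 3 weeks. PBM (photobiomodulation) rats were exposed to 670 nm red light for 3 min a day on 5 days. LD (light damage) rats were exposed to bright light for 24 h, at 1000 lux by the descriptions of the samples, while their source names read 100 lux. SafLD and PBMLD rats received saffron or PBM first and then 24 h of 1000 lux. Both sexes were used, and the labels give no sex for an array.

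Rods are the photoreceptors of dim light, and they make up most of the cells of a rat retina. A rod captures photons in a stack of membrane discs, turns the signal over through a G-protein cascade, and depends on a small set of transcription factors, with Crx and Nrl at their head, for the high output of its specialised genes. Esrrb encodes estrogen-related receptor beta, an orphan nuclear receptor that is known in the retina as a rod factor. Reep6 encodes a membrane-shaping protein of the endoplasmic reticulum that rods need for trafficking and survival. Plpp2, formerly Ppap2c, encodes a phospholipid phosphatase that removes the phosphate from lipids such as phosphatidic acid. Ppef1 encodes a serine/threonine phosphatase with EF-hand calcium-binding motifs, the relative of the photoreceptor phosphatase Ppef2. Susd3 encodes a small membrane protein with a sushi domain. The arrays measured whole retina, so they carry no evidence of their own on which cell the RNA came from, and fewer cells of a type cannot be told apart from less RNA per cell.

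The DNA before the starts of the 5 genes, which were chosen for their low level in light, was looked up. RefSeq's rat promoter table (build GRCr8) held 3 of them, and Plpp2 and Ppef1 had no entry. The 250 bases before the start are printed in the gene's own direction, with matches to the searched motifs in capitals. The Esrrb window lies at chr6:111738412-111738661 on the + strand, that of Reep6 at chr7:10031272-10031521 on the - strand and that of Susd3 at chr17:15607009-15607258 on the + strand.
Esrrb: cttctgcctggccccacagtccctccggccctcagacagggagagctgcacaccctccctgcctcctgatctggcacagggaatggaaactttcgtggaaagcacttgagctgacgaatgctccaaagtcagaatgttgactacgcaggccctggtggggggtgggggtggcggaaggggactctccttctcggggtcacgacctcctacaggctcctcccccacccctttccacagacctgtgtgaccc
Reep6: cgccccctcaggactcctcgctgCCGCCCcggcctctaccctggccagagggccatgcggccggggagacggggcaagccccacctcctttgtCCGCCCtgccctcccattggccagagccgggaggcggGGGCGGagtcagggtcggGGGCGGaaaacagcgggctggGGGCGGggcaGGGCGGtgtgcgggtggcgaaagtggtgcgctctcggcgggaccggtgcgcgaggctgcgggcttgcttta
Susd3: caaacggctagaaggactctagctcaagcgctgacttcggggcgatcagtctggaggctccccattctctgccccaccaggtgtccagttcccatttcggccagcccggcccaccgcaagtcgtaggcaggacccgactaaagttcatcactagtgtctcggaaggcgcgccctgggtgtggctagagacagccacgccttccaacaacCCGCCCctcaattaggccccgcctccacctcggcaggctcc
The motifs were TAATCC, the core bound by Crx, TGCTGA, the core bound by Nrl and other Maf factors, AGGTCA, the half-site of nuclear receptors such as Esrrb itself, and GGGCGG, the GC box of Sp factors, each on both strands, with no overlap between them in these windows. None of the first 3 occurred in any of the 3 windows, against 6.34% of all 33469 rat promoters of the same length for TAATCC, 15.1% for TGCTGA and 14.1% for AGGTCA. The GC box occurred 6 times in Reep6, at positions -227, -157, -120, -102, -81 and -71 from the start, 1 time in Susd3 at -41, and not in Esrrb. A GC box was held by 30.5% of all promoters, and 6 or more by 0.825%. Guanine and cytosine made up 62.0% of the Esrrb window, 74.8% of the Reep6 window and 62.8% of the Susd3 window, with a median of 51.2% over all promoters. Letters that are absent from a window of this length say nothing about binding elsewhere.

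Esrrb lay farthest below control in LD and SafLD, while in PBMLD Plpp2 did. All values are log2 intensities, so that 1 unit is a 2-fold difference. Its values on the 3 arrays were 10.62, 10.43 and 10.24 in control, 9.77, 9.68 and 10.47 in saffron and 10.75, 10.92 and 10.76 in PBM. With light they were 8.66, 8.33 and 7.27 in LD, 7.55, 7.92 and 8.56 in SafLD and 9.26, 8.25 and 8.36 in PBMLD. Every light-exposed retina lay below every unexposed one, the highest of them being PBMLD replicate 1 at 9.26 and the lowest unexposed retina saffron replicate 2 at 9.68. The group means ran from PBM at 10.81 ± 0.1 (SD, n = 3), through control at 10.43 ± 0.19 and saffron at 9.97 ± 0.43, to PBMLD at 8.62 ± 0.55, LD at 8.09 ± 0.72 and SafLD at 8.01 ± 0.51. PBM lay above every control array and saffron above every PBMLD array, while control and saffron overlapped, as did the 3 light groups. Esrrb stood at 19.8% of the control level in LD, 18.7% in SafLD and 28.6% in PBMLD, with log2 differences of -2.34, -2.42 and -1.81 (SE 0.33 each).

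Reep6 kept more of its control level after PBM than in the other light groups. Its values were 12.16, 12.07 and 11.95 in control, 12.14, 11.44 and 12.02 in saffron and 12.11, 12.19 and 12.18 in PBM. With light they were 10.85, 10.74 and 9.63 in LD, 10.63, 10.65 and 10.56 in SafLD and 11.25, 10.95 and 11.24 in PBMLD. The 9 light-exposed retinas again lay below the 9 others, with a narrow gap between PBMLD replicate 1 at 11.25 and saffron replicate 2 at 11.44. PBMLD, at 11.15 ± 0.17, lay above all arrays of SafLD (10.61 ± 0.05) and LD (10.4 ± 0.67), which overlapped each other, and the 3 unexposed groups overlapped too. The Reep6 level was 31.8% of control in LD, 36.7% in SafLD and 53.2% in PBMLD, where the difference was under 2-fold.

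Plpp2 differed from control by nearly the same amount in the 3 light groups. Its values were 10.74, 10.73 and 10.94 in control, 10.79, 10.44 and 10.67 in saffron and 10.83, 10.75 and 10.76 in PBM. With light they were 9.19, 9.02 and 8.15 in LD, 9.16, 8.94 and 8.79 in SafLD and 9.46, 8.31 and 9.06 in PBMLD. The light-exposed retinas were 9.46 at most and the unexposed ones 10.44 at least, the widest gap of the 5 genes. Plpp2 was at 24.7% of control in LD, 28.0% in SafLD and 27.6% in PBMLD, and the means of the 3 light groups, between 8.79 and 8.97, overlapped throughout.

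Ppef1 followed another order. Its values were 7.96, 8.04 and 8.3 in control, 7.19, 8.23 and 7.4 in saffron and 7.75, 7.84 and 7.76 in PBM. With light they were 7.28, 7.01 and 6.96 in LD, 6.13, 6.21 and 6.4 in SafLD and 6.53, 5.92 and 7.22 in PBMLD. It was the only one of the 5 whose light-exposed and unexposed retinas overlapped, since LD replicate 1 at 7.28 and PBMLD replicate 3 at 7.22 lay above saffron replicate 1 at 7.19. LD held the highest mean of the light groups, 7.08 ± 0.17, followed by PBMLD at 6.55 ± 0.65 and SafLD at 6.25 ± 0.14. Against control, Ppef1 was at 49.4% in LD, 34.3% in PBMLD and 27.7% in SafLD. Its values in SafLD and in PBMLD replicate 2 lay near the medians of the arrays, 6.12 to 6.19. The lowest value of the other genes, that of Esrrb, was 7.27.

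Susd3 had the smallest mean light difference of the 5 genes and the smallest standard error, 0.13. Its values were 9.47, 9.54 and 9.42 in control, 9.31, 9.19 and 9.42 in saffron and 9.1, 9.15 and 9.21 in PBM. With light they were 8.54, 8.37 and 7.92 in LD, 8.18, 8.08 and 8.22 in SafLD and 8.56, 8.5 and 8.55 in PBMLD. The light-exposed retinas reached 8.56 and the unexposed ones began at 9.1, with no overlap. Susd3 was at 43.5% of control in LD, 40.1% in SafLD and 52.0% in PBMLD.

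**Figure D1:**
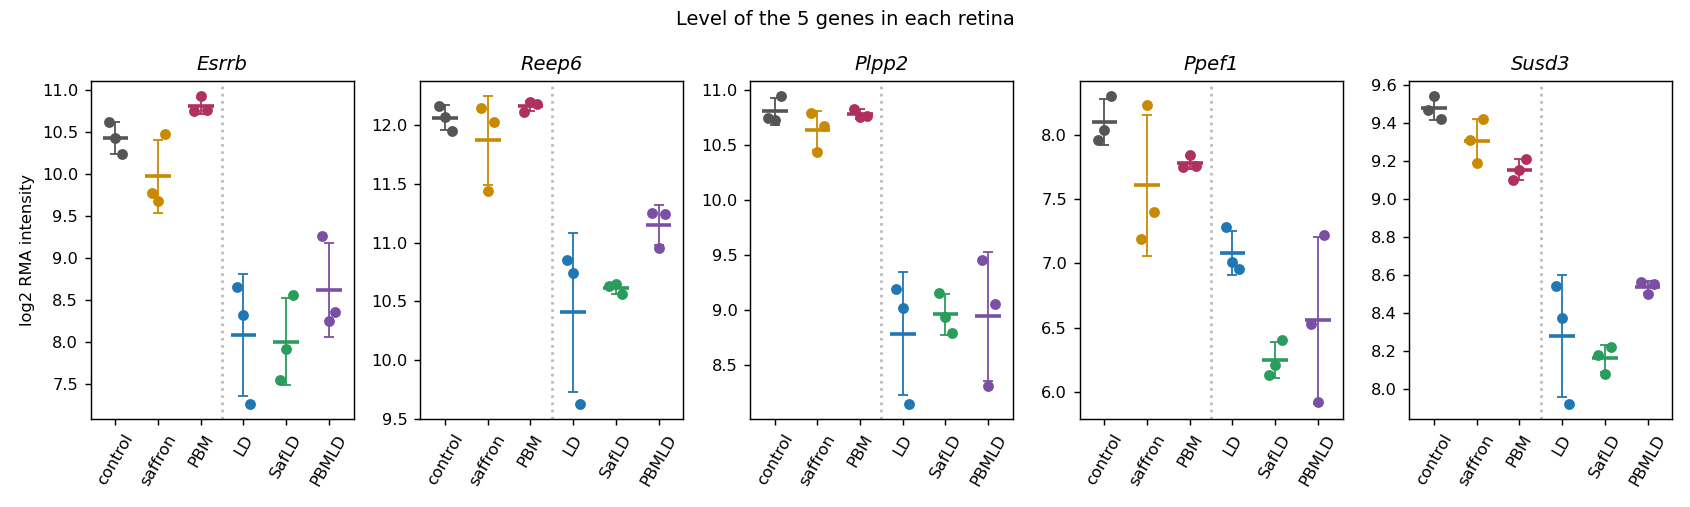
Log2 RMA intensity (vertical axis, scaled separately for each gene) of the 5 genes in the 6 groups (horizontal axis), with 1 point per array, a bar at the group mean and whiskers of 1 SD (n = 3). Right of the dotted line are the light-exposed groups, which lie below every unexposed array for Esrrb, Reep6, Plpp2 and Susd3 and overlap the saffron arrays for Ppef1.

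For 4 of the 5 genes the 9 light-exposed arrays did not overlap the 9 unexposed ones, a pattern shown by 116 of all 29214 probe sets (0.397%). Since the genes were chosen for it, nothing is read from that share. Of the 15 differences between a light group and control, 13 were over 2-fold, 5 in LD, 5 in SafLD and 3 in PBMLD, where Reep6 and Susd3 stayed within 2-fold. Lower by over 2-fold were 0.133% of all probe sets in LD, 0.489% in SafLD and 0.483% in PBMLD. Leaving out LD replicate 3, whose values were the lowest of the LD arrays for all 5 genes, moved the LD difference of Reep6 from -1.65 to -1.27 and that of Esrrb from -2.34 to -1.93. Ranked by the mean of the 3 light differences over the 14506 genes with a single symbol, Esrrb (-2.19), Plpp2 (-1.9), Ppef1 (-1.47) and Reep6 (-1.34) held places 1 to 4 and Susd3 (-1.15) place 7. The genes nearest to that edge were Cerk (ceramide kinase, -1.25) and Lamb3 (a laminin chain, -1.16), which rank just above Susd3, and Hk2 (hexokinase 2, -1.14), Tmem116 (-1.11) and Aqp1 (the water channel aquaporin 1, -1.08), which rank just beyond it. No numerical limit was part of the choice.

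Each light group was also set against the retinas with the same pretreatment. PBMLD arrays lay below all PBM arrays for the 5 genes, as 6.3% of all probe sets did, with log2 differences of -2.19 for Esrrb, -1.84 for Plpp2, -1.23 for Ppef1, -1.01 for Reep6 and -0.62 for Susd3. SafLD arrays lay below all saffron arrays for the 5 genes as well, as 9.24% of all probe sets did, and the differences were -1.96 for Esrrb, -1.67 for Plpp2, -1.36 for Ppef1, -1.25 for Reep6 and -1.15 for Susd3. The light difference after PBM minus that without pretreatment was 0.64 ± 0.34 (SE) for Reep6 and 0.58 ± 0.19 for Susd3, and lay between -0.21 and 0.18 for the other genes. After saffron it ran from -0.35 ± 0.38 for Ppef1 to 0.4 ± 0.34 for Reep6. These values reuse the differences by which the genes were chosen and were not tested. For Susd3 the value of 0.58 holds a PBM minus control difference of -0.32 beside a PBMLD minus LD difference of 0.26. For Reep6 these were 0.1 and 0.74.

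The light-exposed retinas of a group differed in how low these genes lay, and the same arrays were low for several of them. LD replicate 3 was the lowest LD array, and PBMLD replicate 2 the lowest PBMLD array, for 5 of 5 genes. In LD replicate 3 the values lay below the control mean by more than in the other LD arrays, and the lowest value of the 18, for Esrrb (7.27), Reep6 (9.63), Plpp2 (8.15) and Susd3 (7.92), was found there. For Ppef1 the LD arrays lay close together, at 7.28, 7.01 and 6.96, and its lowest value, 5.92, was in PBMLD replicate 2. This was not particular to these genes. The same 2 arrays were the lowest of their groups for the mean of 18 measured genes of rod phototransduction, at 11.45 in LD replicate 3 against 11.92 and 11.86, and at 11.59 in PBMLD replicate 2 against 11.99 and 11.88. The same held for the mean of the Müller cell markers, at 9.89 in LD replicate 3 against 10.4 and 10.28 and at 9.95 in PBMLD replicate 2 against 10.5 and 10.46, and for the means of the rod structure genes and of the amacrine and horizontal and the bipolar cell markers. For ganglion cell markers LD replicate 3 was again the lowest LD array, but PBMLD replicate 2 the highest PBMLD array. Cone markers were lowest in LD replicate 3 too, but in PBMLD lowest in replicate 3 (8.33, against 8.42 in replicate 2). The pigment epithelium mean was lowest in LD replicate 2 (6.43) and highest in PBMLD replicate 2 (6.77). The glial reaction mean was highest in LD replicate 3 (9.36) and PBMLD replicate 2 (8.55). For microglia markers neither LD replicate 3 nor PBMLD replicate 2 was lowest. These 2 arrays also carried the lowest array weights of the fit in their groups, 0.362 and 0.267. The range over the 3 arrays of a group had a median over the 5 genes of 0.09 in PBM, 0.22 in control, 0.28 in SafLD, 0.71 in saffron, 1.01 in PBMLD and 1.04 in LD.

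**Figure D2:**
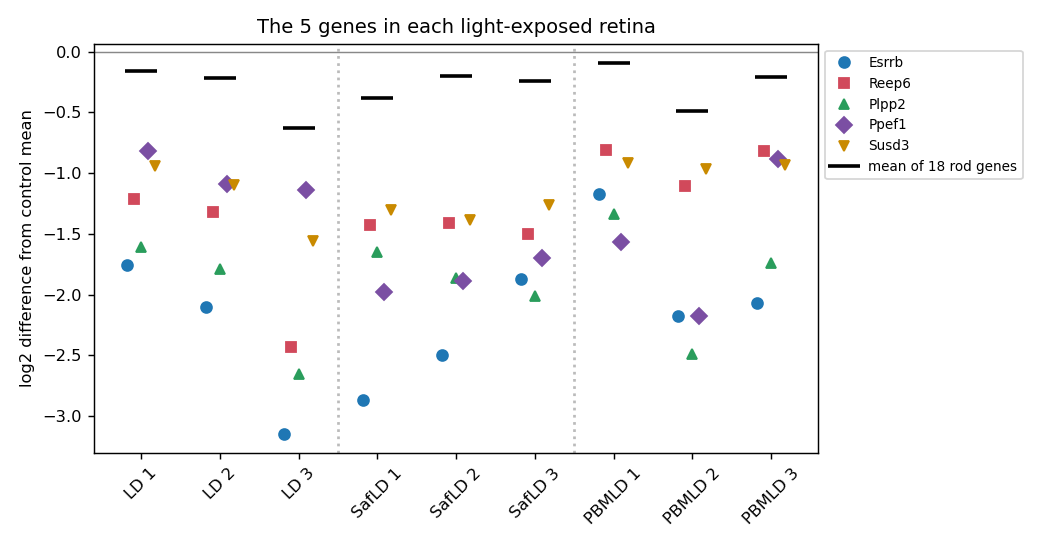
Log2 difference from the control mean (vertical axis) of the 5 genes in each of the 9 light-exposed retinas (horizontal axis), with the mean of 18 rod phototransduction genes as a black bar. LD replicate 3 and PBMLD replicate 2 are the lowest of their groups for the 5 genes and for the bar.

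Esrrb, Reep6, Plpp2 and Susd3 kept step with each other, and Ppef1 kept apart. Over the 18 arrays the 6 pairs among the first 4 had correlations of r = 0.92 to 0.94, a measure that includes the contrast between light-exposed and unexposed retinas by which the genes were chosen. After each group's mean was taken off, r was 0.59 to 0.88 for the same pairs, highest between Reep6 and Susd3. The 4 pairs with Ppef1 had r = 0.68 to 0.81 over all arrays and -0.08 to 0.26 within groups. The points share arrays, so these values describe the 18 libraries and carry no p. Within groups, r also takes in the low values of LD replicate 3 and PBMLD replicate 2, which were low for other gene lists too. No background of r over all gene pairs was taken, and a link between these genes was not tested.

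The genes with the most similar pattern were sought among 7434 genes with a mean of 7 or more. Sema7a, which encodes a membrane-anchored semaphorin, followed Reep6 most closely, with r = 0.993 over all arrays and 0.96 within groups. Its values were 11.69, 11.68 and 11.52 in control, 10.83, 10.76 and 9.9 in LD, 10.51, 10.6 and 10.53 in SafLD and 11.1, 10.82 and 11.1 in PBMLD, so that its lowest array was LD replicate 3 as well. Msi1, an RNA-binding protein (r = 0.977), and Rcvrn, the calcium sensor recoverin (0.974), came next. For Plpp2 the closest were Tmem116 (r = 0.974), Gnat1, the rod transducin alpha subunit (0.965), and Rabep2 (0.955). For Susd3 they were Tlcd3b (r = 0.966), Tmem116 (0.965) and Rcvrn (0.955). For Esrrb they were Optn, the autophagy receptor optineurin (r = 0.95), Sema7a (0.949) and Cngb1, the beta subunit of the rod cyclic-nucleotide-gated channel (0.944). Within groups r with Esrrb was 0.57 for Optn, 0.75 for Sema7a and 0.85 for Cngb1, the reverse order. With Reep6 it was 0.9 for Msi1 and 0.83 for Rcvrn. With Plpp2 it was 0.78 for Tmem116, 0.85 for Gnat1 and 0.68 for Rabep2. With Susd3 it was 0.91 for Tlcd3b, 0.68 for Tmem116 and 0.78 for Rcvrn. The list for Ppef1 held no gene of the rod lists, namely Mpped2 (r = 0.927), the cytosolic malate dehydrogenase Mdh1 (0.893) and the mannose phosphate isomerase Mpi (0.885). Within groups these 3 had r = 0.72, 0.77 and 0.59 with Ppef1.

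**Figure D3:**
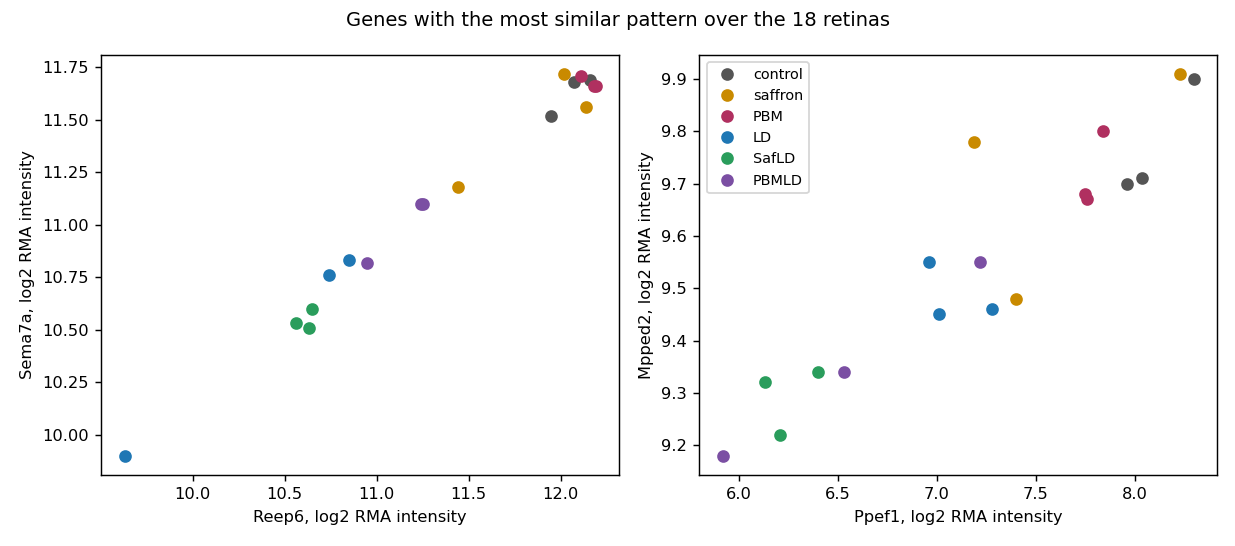
Log2 RMA intensity of Reep6 against Sema7a (left) and of Ppef1 against Mpped2 (right) in the 18 retinas, coloured by group. The Reep6 points run from LD replicate 3 at 9.63 to the unexposed retinas near 12, and in the right panel the SafLD retinas and 1 PBMLD retina are lowest.

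The first test was made between groups that had not seen bright light. The difference between PBM and saffron retinas was not part of the choice of the genes. None of the 5 genes was called between them (limma, adjusted p below 0.05 and over 2-fold), against 0.322% of all probe sets, and 1 had an unadjusted p below 0.05, against 13.2%. That one was Esrrb, higher in every PBM array than in any saffron array, by 0.84 ± 0.33 (SE), with a 95% interval of 0.13 to 1.54 and adjusted p = 0.301. Groups without overlap in that direction made up 12.4% of all probe sets. The other differences ran from -0.15 for Susd3 (interval -0.43 to 0.13) to 0.29 for Reep6 (-0.21 to 0.8), with adjusted p of 0.623 to 0.842. Averaged over 11 lens genes, the log2 level was lower in PBM, at 10.36 to 10.89, than in saffron, at 11.33 to 12.0, and its part in these differences was not tested.

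Against control, whose arrays the choice did use, PBM and saffron left the 5 genes without a call. In PBM versus control 0 of 5 were called by limma, against 0.133% of all probe sets, and 1 had an unadjusted p below 0.05, against 9.96%. Susd3 was at 80.1% of control in PBM, a log2 difference of -0.32 (interval -0.6 to -0.04, adjusted p = 0.442). Susd3 and Ppef1 lay lower in PBM than in any control array, as 11.4% of probe sets did, and Esrrb lay higher, as 11.8% did. The Esrrb difference was 0.38, with an interval of -0.32 to 1.08 and adjusted p = 0.741. Reep6 and Plpp2 differed from control in PBM by 0.1 (-0.4 to 0.61) and -0.02 (-0.56 to 0.51). In saffron versus control 0 of 5 were called and 0 had an unadjusted p below 0.05, beside 0.0% and 4.6% of all probe sets. All 5 saffron means were below control, by -0.46 for Esrrb (interval -1.16 to 0.25), -0.49 for Ppef1 (-1.05 to 0.07) and between -0.17 and -0.19 for the other genes, with adjusted p of 0.989 to 0.993.

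The comparisons among the light-exposed groups asked whether a pretreatment left these genes at another level. The arrays of these groups were used in choosing the genes, with each group set against control. Choosing genes low in all of these groups can bear on the differences among them, so their p values and intervals carry that limit. PBMLD against LD gave 0 calls of 5 by limma, against 0.216% of all probe sets, with 1 unadjusted p below 0.05, against 11.5%. Reep6 stood 1.67-fold higher in PBMLD than in LD, a log2 difference of 0.74 ± 0.24 (interval 0.24 to 1.25, adjusted p = 0.248), and all PBMLD arrays lay above all LD arrays, as for 8.7% of probe sets. Leaving out LD replicate 3 lowered it to 0.36 (adjusted p = 0.485), and over all single arrays left out the adjusted p ran from 0.102 to 0.485. Esrrb was higher in PBMLD by 0.53 (-0.17 to 1.24) and Susd3 by 0.26 (-0.02 to 0.54), Plpp2 differed by 0.16 (-0.38 to 0.69), and Ppef1 differed the other way by -0.53 (-1.09 to 0.03). The adjusted p of these 4 lay between 0.463 and 0.853. Without LD replicate 3 the Esrrb difference was 0.13 and that of Susd3 0.08, and without PBMLD replicate 2 that of Ppef1 was -0.21. In this comparison 11 of 11 lens genes had negative differences (median -0.61), with 0 at an unadjusted p below 0.05 (limma). So had 10 of 10 genes of glial reaction (median -0.78), with 8 at an unadjusted p below 0.05 and 1 past the adjusted test. Their part was not tested.

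In SafLD against LD, 0 of 5 genes were called by limma, against 0.257% of all probe sets, and 1 had an unadjusted p below 0.05, against 9.55%. Ppef1 was at 55.9% of its LD level in SafLD, a log2 difference of -0.84 ± 0.27 (interval -1.4 to -0.28, adjusted p = 0.27). Its 3 SafLD arrays lay below its 3 LD arrays, as for 6.5% of probe sets. With arrays weighted by their quality the difference was -0.89 and the adjusted p = 0.0275, still within 2-fold. The other 4 genes differed by -0.12 for Susd3 to 0.21 for Reep6, with adjusted p of 0.827 to 0.969. The intervals of Esrrb (-0.78 to 0.63), Reep6 (-0.3 to 0.71) and Plpp2 (-0.36 to 0.71) reach to either side of 0, so that a difference in either direction remains possible. The lens genes had negative differences in this comparison, 11 of 11, with 7 at an unadjusted p below 0.05 and 0 past the adjusted test, and their part was not tested.

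PBMLD against SafLD had 0 calls of 5 by limma, beside 0.0% of all probe sets, and 2 unadjusted p below 0.05, against 8.32%. Susd3 was higher in PBMLD by 0.38 ± 0.13 (interval 0.1 to 0.66, adjusted p = 0.517) and Reep6 by 0.54 ± 0.24 (0.03 to 1.04, adjusted p = 0.577). Both had every PBMLD array above every SafLD array, as 6.79% of probe sets had. Esrrb differed by 0.61 (-0.09 to 1.31), Ppef1 by 0.31 (-0.25 to 0.87) and Plpp2 by -0.02 (-0.56 to 0.52). The median over the 5 genes was 0.38, and over all probe sets 0.01. Over the other gene lists the median ran from -0.59 for glial reaction to 0.4 for ganglion cell markers. It was 0.21 for family relatives of the 5 genes, 0.12 for rod structure genes and 0.0 for rod phototransduction genes. The comparisons of PBMLD and SafLD with LD share the LD arrays, and this one shares the PBMLD and SafLD arrays with them.

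**Figure D4:**
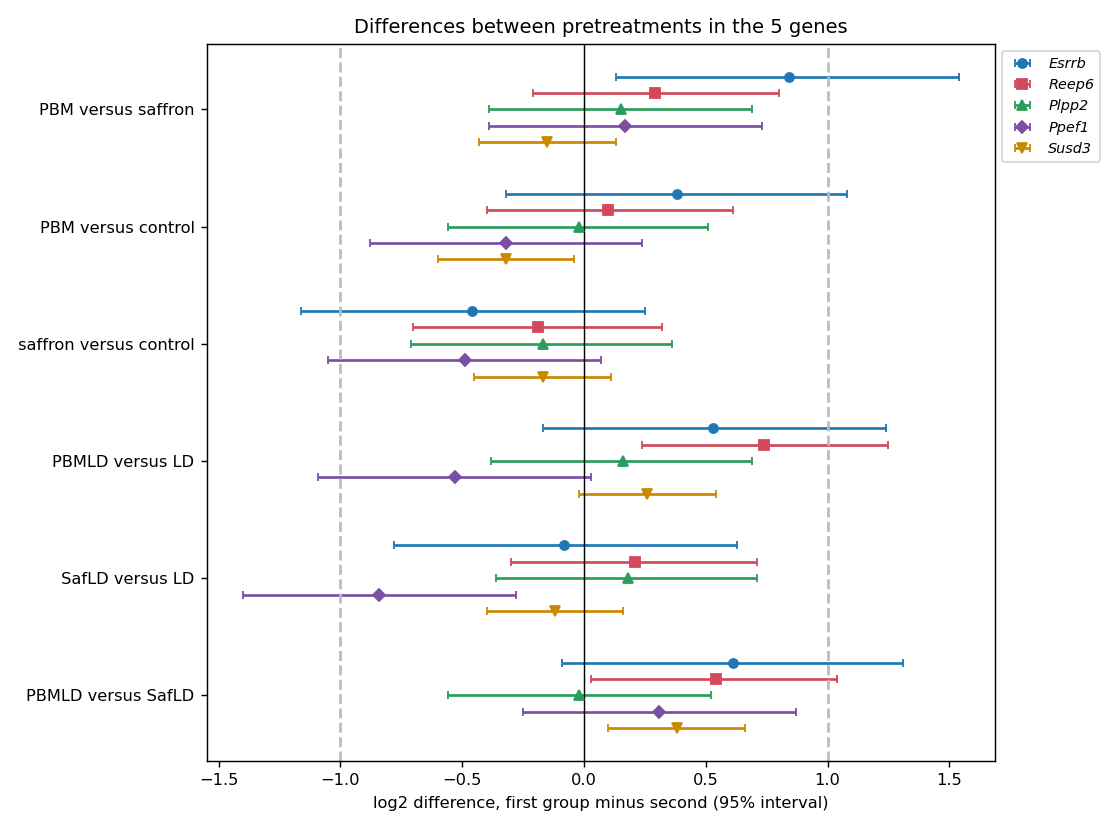
Log2 difference, first group minus second (horizontal axis), of the 5 genes in the 6 comparisons that were tested (vertical axis), with 95% intervals from limma. Dashed lines mark 2-fold, and no point lies beyond them; the intervals of Esrrb in PBM versus saffron, Susd3 in PBM versus control, Reep6 in PBMLD versus LD, Ppef1 in SafLD versus LD, and Reep6 and Susd3 in PBMLD versus SafLD exclude 0 before adjustment.

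The close relatives of the 5 genes were taken by family and not by their values. Of 15 relatives looked up, 12 were measured, and 0 passed an adjusted p of 0.05 in limma in LD, SafLD or PBMLD against control. At an unadjusted p below 0.05 were 2, 5 and 1 of the 12, beside 9.58%, 16.9% and 12.0% of all probe sets. In SafLD the 5 were Reep2 (-0.55), Reep5 (-0.43), Susd4 (-0.41) and Esrra (-0.3), all lower, and Plpp1 (0.43), which was higher. In LD the relatives ran from -0.37 for Reep2 to 0.42 for Plpp1. Over the other settings the number of relatives lower in SafLD ran from 0 to 3, the 3 with arrays weighted by their quality, and was 0 with single arrays left out. For the estrogen-related receptors, Esrra differed by -0.32 and Esrrg by -0.15 in LD. Ppef2, the photoreceptor relative of Ppef1, differed by -0.28 (interval -0.87 to 0.32, adjusted p = 0.846). Plpp1 and Plpp3, which share the enzyme activity of Plpp2, had positive differences of 0.42 and 0.34.

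Among the known regulators of photoreceptor genes 12 of 18 were measured, and Nr2e3 and Otx2 were among those without a single-symbol probe set. In LD 0 of the 12 passed an adjusted p of 0.05 in limma, with 6 at an unadjusted p below 0.05, against 9.58% of all probe sets. In SafLD 1 was higher and 2 were lower, and in PBMLD 1 was lower. The shares of all probe sets that passed were 0.839% higher and 0.274% lower in LD, 1.45% higher and 1.34% lower in SafLD, then 0.325% higher and 0.428% lower in PBMLD. Nrl, which commits a photoreceptor to the rod fate, was at 47.1% of control in LD (-1.09 ± 0.26, adjusted p = 0.0502), 52.2% in SafLD and 58.2% in PBMLD, not past the threshold in any. Crx, which acts in rods and cones, differed by -0.11 (interval -0.47 to 0.25) in LD. The regulators that fell in SafLD were Mef2d (-0.79, adjusted p = 0.0109) and Rax (-0.7, adjusted p = 0.0131), and Rax was also lower in PBMLD than in control (-0.72, adjusted p = 0.0212). Without bright light, Rax differed by -0.46 in PBM against control (limma, adjusted p = 0.283). Between PBMLD and PBM the Rax difference was -0.26 (adjusted p = 0.697). The highest in LD was Neurod1, at 0.57 (adjusted p = 0.0543). These counts moved with the processing, between 0 and 2 lower in LD and 0 and 4 lower in SafLD.

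Most rod phototransduction genes had negative differences in light, 15 of 18 in LD. Of 20 genes 18 were measured, and 2 fell in LD, 4 in SafLD and 2 in PBMLD at an adjusted p below 0.05 (limma), with 0 higher in each. Of all probe sets 0.274%, 1.34% and 0.428% fell in these groups. The median over the 18 was -0.28 in LD, -0.22 in SafLD and -0.24 in PBMLD, against -0.02, 0.02 and 0.03 over all probe sets. Recoverin (Rcvrn) fell in LD by 0.71 on the log2 scale (adjusted p = 0.00337), and phosducin (Pdc), which binds transducin subunits, fell by 0.61 (adjusted p = 0.0413). The lowest point value was that of Slc24a1, the rod sodium/calcium-potassium exchanger, at -0.98 with a wide error of 0.31 and adjusted p = 0.212. Gnat1 differed by -0.53 (adjusted p = 0.0782), the guanylate cyclase Gucy2d, highest of the list, by 0.12 (adjusted p = 0.939), arrestin (Sag) by 0.09, and the channel subunit Cnga1 by -0.04 (interval -0.28 to 0.19). Over the other settings the number of these genes lower in LD ran from 0 to 4, and without single arrays from 1 to 3. The number lower in SafLD ran from 0 to 7 and in PBMLD from 0 to 3 over the other settings.

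Most genes of rod structure and metabolism had negative differences in LD, 13 of 16, with a median of -0.3, against -0.02 over all probe sets. At an unadjusted p below 0.05 (limma) were 12 of 16, against 9.58% of all probe sets. Of 20 genes 16 were measured, and in LD 1 rose and 1 fell, in SafLD 2 rose and 1 fell, and in PBMLD 1 rose, at an adjusted p below 0.05 (limma). Of all probe sets 0.839% rose and 0.274% fell in LD, 1.45% rose and 1.34% fell in SafLD, and 0.325% rose in PBMLD. Rom1, a disc rim protein, fell in LD by 0.79 on the log2 scale (adjusted p = 0.0282), and Fscn2, the photoreceptor actin bundler fascin 2, rose by 0.84 (adjusted p = 0.00476). Without single arrays the number that fell in LD ran from 0 to 3, and over the other settings the number lower in SafLD ran from 0 to 8.

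**Figure D5:**
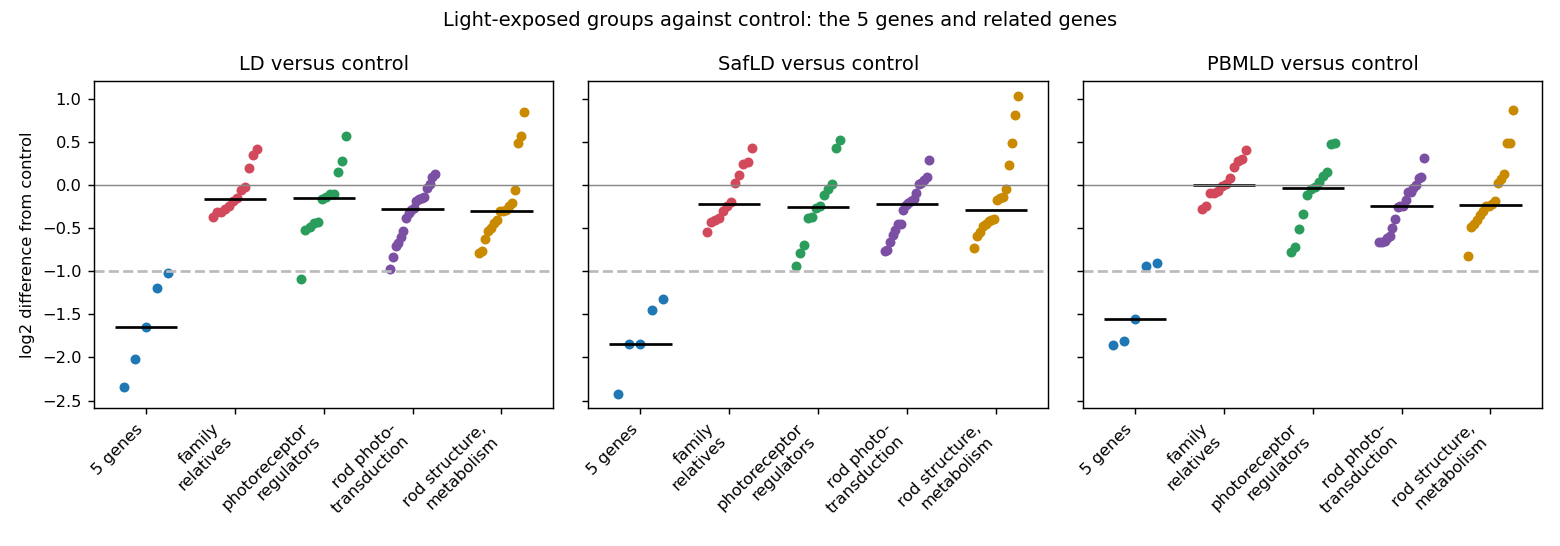
Log2 difference from control (vertical axis) in LD, SafLD and PBMLD for the 5 genes, 12 relatives of their families, 12 photoreceptor regulators, 18 rod phototransduction genes and 16 genes of rod structure and metabolism, 1 point per gene, with a bar at the median. The dashed line marks 2-fold; the 5 genes were chosen for these differences, and of the other genes shown Nrl in LD alone lies below the line.

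Markers of other cells were read beside these values. Over all probe sets in LD, 0.839% were higher and 0.274% lower at an adjusted p below 0.05 (limma). An unadjusted p below 0.05 was held by 9.58% of them, and their median difference was -0.02. The mean log2 level of 10 genes of glial reaction lay at 6.81 to 7.03 in control and 8.48 to 9.36 in LD, and 8 of the 10 rose in LD, among them Gfap, by 3.27 (adjusted p = 7.25e-06). Within LD that mean was 8.48, 9.3 and 9.36, lowest in LD replicate 1, where Esrrb (8.66) and Reep6 (10.85) were highest. Within PBMLD it was 7.59, 8.55 and 8.4, lowest in replicate 1, where Esrrb (9.26) and Reep6 (11.25) were highest too. Within SafLD it was 8.4, 8.9 and 8.95, lowest in replicate 1, where Esrrb (7.55) was lowest and Reep6 (10.63) lay between the other arrays. A link was not tested. Cone markers were at 8.63 to 8.78 in control and 8.31 to 8.52 in LD, with 2 of 10 lower and Opn1sw at -0.8 (adjusted p = 0.0782). For 11 lens genes the mean was 10.54 to 10.95 in control and 12.62, 10.41 and 12.47 in LD. By limma 0 of 11 passed the test, with 8 at an unadjusted p below 0.05. The lens mean was also high in saffron, at 12.0, 11.5 and 11.33, and lay at 10.36 to 10.89 in PBM, 10.26 to 11.33 in SafLD and 10.84 to 11.64 in PBMLD. Lens genes were higher in saffron than in control and lower in PBM than in saffron, 11 of 11 in each. In each, 6 had an unadjusted p below 0.05, against 4.6% and 13.2% of all probe sets, and 0 passed the adjusted test. LD replicates 1 and 3, both with a high lens mean, held the highest and the lowest LD values of each of the 5 genes. The pigment epithelium markers had means of 5.82 to 6.61 in control and 6.43 to 7.03 in LD, with 0 of 8 past the test and 3 at an unadjusted p below 0.05, and microglia markers 5.48 to 5.55 and 5.38 to 5.62. Of 8 microglia markers 1, P2ry12, fell in LD and was called, and 5 had an unadjusted p below 0.05. Differences in LD were negative for 7 of 7 Müller cell markers (median -0.19), 7 of 7 ganglion cell markers (-0.24), 7 of 8 amacrine and horizontal cell markers (-0.15) and 6 of 8 bipolar cell markers (-0.1). Of these lists 0 genes passed the adjusted test in LD for the first 3, with 1, 0 and 2 at an unadjusted p below 0.05, and 1 bipolar marker, Isl1, fell. In SafLD 3 of 8 bipolar and 2 of 7 ganglion cell markers fell at an adjusted p below 0.05 (limma). So did 1 of 8 amacrine and horizontal and 0 of 7 Müller cell markers, against 1.34% of all probe sets. In PBMLD 1 of 8 bipolar and 1 of 8 amacrine and horizontal cell markers fell, against 0.428%, with 0 in the ganglion and Müller cell lists. P2ry12 and Isl1 are named after their values were seen. Neither the source of the lens gene RNA nor the part of these cells in the differences of the 5 genes was tested.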

How the data were processed

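Total RNA of 18 retinas was hybridised to Affymetrix rat Gene 1.0 ST arrays, 3 per group. The authors deposited log2 intensities after RMA, which corrects background, quantile-normalizes and summarises each probe set. Affymetrix Expression Console 1.1.2800.19935 is the program in the submitters' processing notes. No genome build was used for the array values, and build GRCr8 served for the promoter windows alone. All arrays were kept, with values of 1.37 to 14 and medians of 6.12 to 6.19. The number of arrays limits the precision. The study's methods mention more animals per group than there are arrays.

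Of 29214 probe sets 15310 had 1 gene symbol in the platform annotation, 323 several and 13581 none. A limma 3.58.1 model (R 4.3.3) was fitted over all arrays (12 residual degrees of freedom, prior 5.05), two-sided, with Benjamini-Hochberg adjustment over all probe sets; a call needed an adjusted p below 0.05 and more than a 2-fold change. For a gene with several probe sets the brightest was used. The fit was tested on simulated data. Alternatives were the methods' test, the 2 groups alone, a variance trend, array weights, other scalings, dim probe sets left out, the replicate number as a block, and each array left out in turn.

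Named were all 5 genes, their relatives, for each of the 5 the 3 genes with the highest correlation, the 5 nearest in rank, and the defining genes and those most changed in LD of the photoreceptor lists; Pdc, Sag, Cnga1, Mef2d and Rax were named after their values were seen. The 5 genes, the lists and the tests were chosen with earlier results of these data known.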

Additional observations from a re-analysis of the deposited data

How the results depend on the processing

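None of the 5 genes was called in any of the 6 tested comparisons under any of the 18 alternatives run for each, the methods' t-test before and after adjustment included. The count of light against control differences over 2-fold was 12 or 13 of 15 throughout. Of the 30 tested differences 10 changed sign under at least 1 alternative, and none of these was over 0.31 in size. With array weights the SafLD minus LD difference was -0.07 for Reep6 and -0.09 for Plpp2, and Plpp2 gave 0.01 in PBM minus control and 0.14 in PBMLD minus SafLD. Plpp2 in PBM minus control was 0.06 after quantile normalization and 0.03 after cyclic loess. Leaving out LD replicate 3 and PBMLD replicate 2 together, chosen after seeing the data, gave -0.18 for Reep6 and -0.14 for Plpp2 in SafLD minus LD, and 0.29 for Plpp2 in PBMLD minus SafLD.

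With single arrays left out, the ranges that crossed 0 were -0.48 to 0.21 (Esrrb), -0.18 to 0.43 (Reep6), -0.14 to 0.38 (Plpp2) and -0.3 to 0.01 (Susd3) in SafLD minus LD. For Plpp2 they were -0.06 to 0.05 in PBM minus control, -0.16 to 0.47 in PBMLD minus LD and -0.28 to 0.29 in PBMLD minus SafLD. For Ppef1 they were -0.03 to 0.48 in PBM minus saffron and -0.02 to 0.63 in PBMLD minus SafLD, and for Reep6 -0.33 to 0.02 in saffron minus control. The cause was not tested. The replicate numbers did not pair the arrays, since residual correlations of same-numbered arrays ran from -0.3855 to 0.2098; with the replicate number as a block 0 members were called in each comparison, and Reep6 in PBMLD minus LD stayed at 0.74 (adjusted p = 0.277).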
